A study of Homo sapiens with 6 samples.

Results

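Lysophosphatidic acid (LPA) is a small signalling lipid, and 9 genes of its receptors and enzymes were described in SKBR3 cells with and without cortactin overexpression: the receptor genes LPAR1, LPAR2, LPAR3, LPAR5 and LPAR6, the LPA-producing enzyme gene ENPP2, and the LPA-degrading enzyme genes PLPP1, PLPP2 and PLPP3. The genes were chosen by name, with earlier results of these data known. They took up 10 of the 54644 rows of the gene table, since ENPP2 had 2 rows. Of the 9 genes, 6 passed the filter on low counts and were among the 14433 genes tested, while LPAR1, LPAR6 and ENPP2 did not.

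SKBR3 is an established human breast adenocarcinoma line that overexpresses the receptor tyrosine kinase HER2. The control group (n = 3 libraries) carried the empty pLVX lentiviral vector, and the CTTN group (n = 3) carried pLVX-CTTN, which holds the cDNA of cortactin, an actin-binding protein of the cell cortex. Both groups were infected with lentivirus and selected with puromycin, so both carried the vector and its resistance gene. The replicates were described as biological, but no source used here said whether separate infections gave them or how many clones each stable line held. The extraction note named tumors as well as stable cell lines as the source of the RNA, whereas the design text named stable cells only.

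As background, LPA in extracellular fluid is made largely by autotaxin, the secreted lysophospholipase D encoded by ENPP2, which removes the choline head group of lysophosphatidylcholine. LPA then acts on G protein-coupled receptors that signal through Gi, Gq, G12/13 or Gs proteins, and they can remodel the actin cytoskeleton. The lipid phosphate phosphatases PLPP1, PLPP2 and PLPP3 end the signal by removing the phosphate group. Serum is a rich source of LPA, and LPA promotes the growth and migration of many epithelial cells.

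The 6 libraries held 34887079 to 41279658 fragments assigned to genes. CTTN libraries 3 and 1 stood apart in a way that followed transcript length, which is given here because it touches the results below. In CTTN library 3, genes whose main isoform was shorter than 1 kb had a median log2 level 0.58 above the control mean, and genes with a main isoform longer than 5 kb lay at -0.67. The same medians were 0.23 and -0.35 in CTTN library 1, whereas those of CTTN library 2 and of the controls stayed close to 0 in every length class. The Pearson correlation of log2 levels across genes was 0.995 to 0.996 between control libraries and 0.976 to 0.991 between CTTN libraries.

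**Figure D1:**
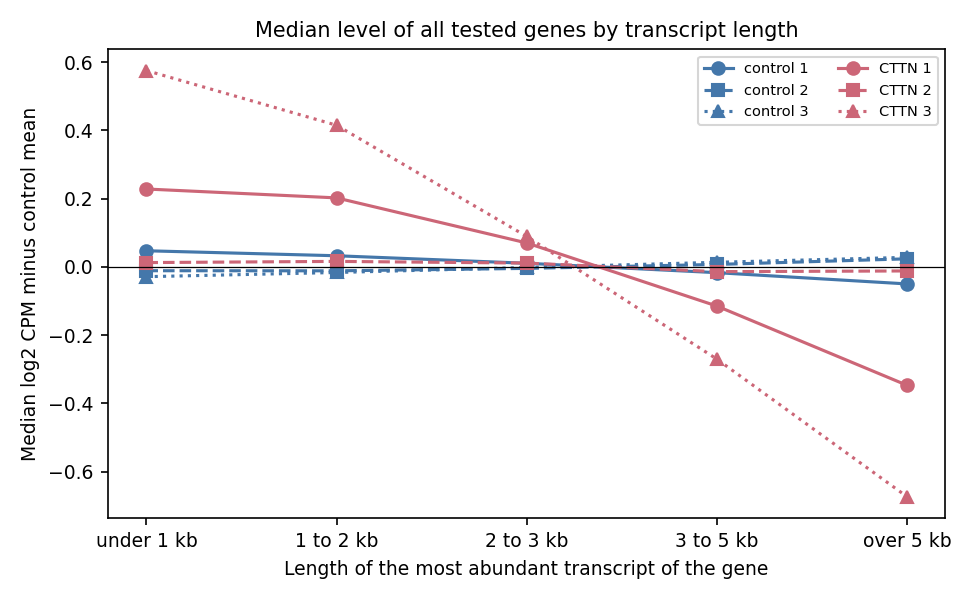
Median difference of depth-scaled log2 counts from the control mean (y axis) for genes in 5 classes of main isoform length (x axis, kb), with 1 line per library. The line of CTTN library 3 falls from 0.58 in the shortest class to -0.67 in the longest, that of CTTN library 1 falls less steeply, and the other 4 libraries lie near 0.

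CTTN itself was at 10912, 11228 and 11265 normalised counts in the control libraries and at 29088, 37144 and 18999 in the CTTN libraries. The groups did not overlap, and CTTN was 2.55-fold higher in the CTTN group (log2 fold change 1.35, SE 0.22, adjusted p = 0.0249 by the edgeR quasi-likelihood test). That call was lost in 8 of 16 alternative settings, 2 of which are the same fit, with an edgeR adjusted p of up to 0.154. The direction held in all 16. The lowest CTTN library was library 3. Of the markers of luminal HER2-positive breast epithelium, ERBB2 was at 1644 to 1790 FPKM (fragments per kilobase of transcript, scaled to library depth), and KRT8, KRT18, KRT19 and EPCAM were also expressed in every library. The adhesion gene CDH1, which was on the same marker list, was at 0.050 to 0.244 FPKM and thus went against it. The summed level of 3 endothelial markers moved with the groups, at 4.12 to 4.62 FPKM in control and 1.56 to 2.17 FPKM in CTTN libraries. It came from CDH5 nearly alone, with PECAM1 at most at 0.022 FPKM and VWF at most at 0.166 FPKM, and its part in the results was not tested. The summed level of 3 basal epithelial markers was 1.97 to 2.23 FPKM in control and 2.43 to 3.39 FPKM in CTTN libraries, and its part was not tested either. Fibroblast markers summed to 2.94 to 4.44 FPKM and leukocyte markers to 0.0647 to 0.349 FPKM, with overlapping groups. Since these are bulk samples, fewer cells of a kind and less RNA per cell cannot be told apart.

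The reference sequence just upstream of LPAR5, LPAR2 and PLPP3 is shown because these tested genes are the ones whose main control transcript begins exactly where the RefSeq window places the start site. Each line gives the 250 bases before the start site, 5′ to 3′ on the minus strand, from RefSeq (GRCh38.p14), at chr12:6631650-6631899 for LPAR5, chr19:19628221-19628470 for LPAR2 and chr1:56579564-56579813 for PLPP3. Capitals mark matches on either strand to 1 of 6 short motifs searched.
LPAR5: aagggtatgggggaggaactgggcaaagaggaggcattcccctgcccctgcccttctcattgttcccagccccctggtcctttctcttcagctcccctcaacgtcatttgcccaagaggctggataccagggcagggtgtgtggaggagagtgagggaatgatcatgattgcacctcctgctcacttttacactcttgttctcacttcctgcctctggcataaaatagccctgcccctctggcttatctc
LPAR2: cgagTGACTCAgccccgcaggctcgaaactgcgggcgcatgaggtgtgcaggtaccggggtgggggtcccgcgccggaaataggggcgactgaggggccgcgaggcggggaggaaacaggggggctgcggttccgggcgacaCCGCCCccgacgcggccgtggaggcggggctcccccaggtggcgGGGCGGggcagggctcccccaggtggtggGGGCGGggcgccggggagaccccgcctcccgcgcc
PLPP3: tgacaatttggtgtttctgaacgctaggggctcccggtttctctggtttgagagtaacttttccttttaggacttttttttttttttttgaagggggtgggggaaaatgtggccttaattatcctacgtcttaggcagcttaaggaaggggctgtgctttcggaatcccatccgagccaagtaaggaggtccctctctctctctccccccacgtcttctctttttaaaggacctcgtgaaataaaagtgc

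The motifs were the TATA box (TATAAA), the GC box (GGGCGG), the CCAAT box, the E-box (CACGTG), the AP-1 site (TGACTCA) and the TCF/LEF site (CTTTGAT). The LPAR2 window held 3 GC boxes, which 42.6% of 35116 windows of 250 bases held at least once, and an AP-1 match that began 246 bases before the start, a motif found in 4.2% of windows. The LPAR5 and PLPP3 windows held no match. TATAAA was present in 10.7% of all windows, CCAAT in 32%, CACGTG in 6.34% and CTTTGAT in 2.26%. The windows also differed in base composition, with a GC content of 78.4% for LPAR2, 55.2% for LPAR5 and 46% for PLPP3, beside a median of 58% over all windows. In total 7 of the 9 genes had a window. The main control transcripts of LPAR3 and PLPP2 began elsewhere than their windows, and ENPP2 and PLPP1 had none. A match is a stretch of letters and was not read as a binding site.

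The receptor genes did not move as a group. LPAR5 rose in CTTN-overexpressing cells, LPAR2 was higher and LPAR3 lower without passing the test, and LPAR1 and LPAR6 were too low to compare.

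LPAR5 encodes a receptor that couples to G12/13 and Gq proteins. It was at 46.4, 33.2 and 40.2 normalised counts in the control libraries and at 82.9, 72.3 and 89.8 in the CTTN libraries. Every CTTN library lay above every control library, as for 19.7% of all genes tested. LPAR5 was 2.05-fold higher in the CTTN group (95% CI 1.5 to 2.81), with a log2 fold change of 1.04 (SE 0.19) and an adjusted p of 0.0339 by the edgeR quasi-likelihood test. At that threshold 2.29% of the 14433 genes tested were called higher and 1.91% lower, so LPAR5 was 1 of 331 genes called higher. It also exceeded the study's 1.5-fold limit, and 3.2% of all genes tested were called and exceeded that limit in either direction. On the per-length scale its level was 0.607 ± 0.091 FPKM in control and 1.20 ± 0.19 FPKM in CTTN cells (SD, n = 3 each). The call was lost in 8 of 16 alternative settings, 2 of which are the same fit because using only the columns named in a description leaves out control library 1. Among them were the omission of CTTN library 1 (adjusted p = 0.161) or of control library 2 (adjusted p = 0.181) in the same edgeR test, and the direction held in all 16. Without CTTN library 1 the fit called 18 genes in total and without control library 2 it called 15, beside 606 in the reported fit. Without CTTN library 3 the log2 fold change was 0.96 (edgeR adjusted p = 0.0289), and with each library's length trend removed it was 1.03 (edgeR adjusted p = 0.0122).

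LPAR2, a receptor that couples to Gi, Gq and G12/13 proteins, was the most abundant transcript of the 5 receptor genes. Its normalised counts were 305.4, 273.2 and 350.6 in control and 496.5, 396.7 and 463.2 in CTTN libraries. The groups did not overlap, as for 38.6% of all genes tested, with the CTTN libraries above in 19.7% and below in 18.9%. The ratio was 1.46 (95% CI 1.17 to 1.82), with a log2 fold change of 0.55 (SE 0.13) and an adjusted p of 0.0675 by the edgeR quasi-likelihood test, which missed the threshold. It passed with DESeq2 (0.54, adjusted p = 0.0105) and in edgeR without CTTN library 2 (adjusted p = 0.00458) or 3 (adjusted p = 0.0489), and missed without CTTN library 1 (adjusted p = 0.239) or any control library (adjusted p of 0.154 to 0.266). The passing fits called 2071 of 14433, 6953 of 14733 and 1244 of 14575 genes, in that order. The reported fit called 606 of 14433, and the fits named as missing called 15 to 30. With the length trend removed its log2 fold change was 0.39 (edgeR adjusted p = 0.0581).

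LPAR3, a receptor that prefers LPA with unsaturated acyl chains, had the opposite direction. It was at 48.5, 58.5 and 34.5 normalised counts in control and at 27.0, 27.4 and 18.8 in CTTN libraries. The groups did not overlap on this scale, with the CTTN libraries below, as for 18.9% of all genes tested. In FPKM the groups did overlap, with CTTN library 2 at 0.338 and control library 3 at 0.305. The log2 fold change was -0.94 (SE 0.28), and the edgeR quasi-likelihood adjusted p of 0.0927 missed the threshold. LPAR3 passed with DESeq2 (adjusted p = 0.0439) and in edgeR without CTTN library 2 (adjusted p = 0.0288). Those fits called 2071 and 6953 genes in total, beside 606 in the reported fit. The main LPAR3 isoform measured 3345 nt. The log2 fold change was -0.79 without CTTN library 3 and -0.86 with the length trend removed.

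LPAR1, the receptor with the widest tissue distribution, and LPAR6, which belongs to the P2Y-like branch of LPA receptors, were at the limit of detection. LPAR1 had 0, 4 and 0 fragments in the control libraries and 1, 0 and 0 in the CTTN libraries. That is 0.0351 CPM (fragments scaled to library depth) in control (95% exact Poisson interval 0.00957 to 0.0899) and 0.00929 in CTTN cells (0.000235 to 0.0518), and the intervals overlap. LPAR6 had 3, 1 and 0 fragments in control and 2, 2 and 0 in CTTN libraries, or 0.0351 and 0.0372 CPM. The LPAR6 gene lies within an intron of RB1 on the opposite strand, and whether the counting used strand is not given in the sources used here. A library with no fragment of the gene allows a level of up to 0.0795 to 0.086 CPM, which is 3 fragments at the depths of these libraries. No difference was detectable for either gene at this depth, and these limits cover counting error only.

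Measured per length, LPAR2 made up 87.4% ± 2.8 of the summed receptor FPKM in control cells and 87.8% ± 0.26 in CTTN cells (SD, n = 3 each). LPAR5 accounted for 6.9% ± 0.53 in control and 9.98% ± 0.92 in CTTN cells, and LPAR3 for 5.14% ± 1.94 and 2.03% ± 0.96. The LPAR5 shares did not overlap between the groups, whereas the LPAR3 shares did, with CTTN library 2 at 3.1% and control library 3 at 3.0%, and no test was made of either. LPAR2 was the main one of the 5 receptor transcripts in every library. The sum of the 5 receptors was 8.93, 7.35 and 10.2 FPKM in control and 13.0, 10.9 and 11.9 FPKM in CTTN libraries. The sums did not overlap, and 3 libraries against 3 cannot reach a two-sided exact permutation p below 0.10.

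**Figure D2:**
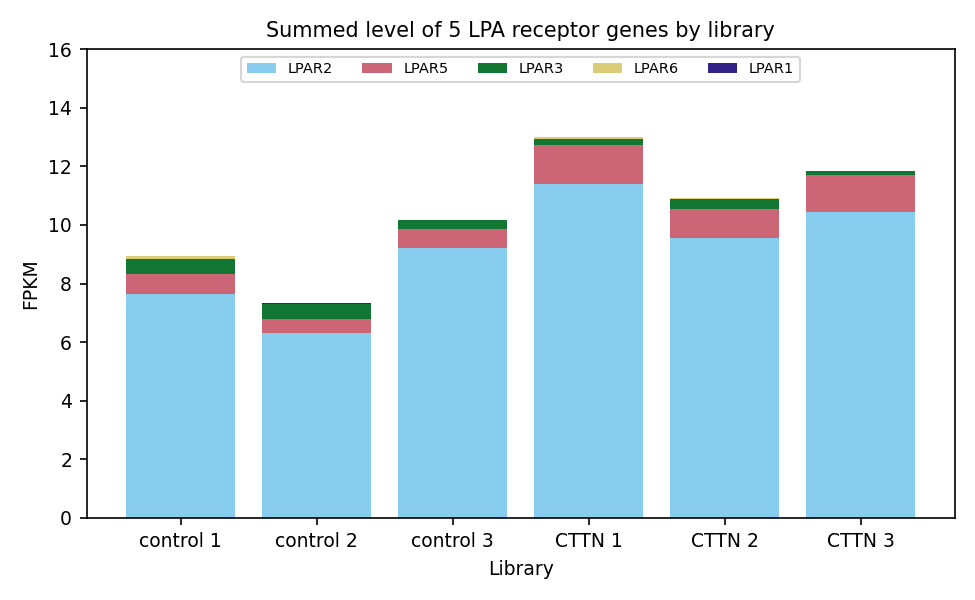
Stacked FPKM of the 5 LPA receptor genes (y axis, from 0) in each of the 6 libraries (x axis), with 1 colour per gene. LPAR2 fills most of every bar, and the 3 CTTN bars, at 10.9 to 13.0 FPKM, stand above the 3 control bars, at 7.35 to 10.2 FPKM.

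Among the enzymes, the LPA-producing gene ENPP2 was scarcely detected, and none of the 3 phosphatase genes passed the test. PLPP1 and PLPP3 were lower in each CTTN library than in each control library, as were 18.9% of all genes tested. PLPP2, by far the most abundant, differed by less than the spread between replicates.

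ENPP2 had 1, 4 and 2 fragments in the control libraries and 3, 3 and 1 in the CTTN libraries, in the row it shared with the pseudogene CYCSP23. The rates were 0.0614 CPM in control (95% exact Poisson interval 0.0247 to 0.127) and 0.0651 in CTTN cells (0.0262 to 0.134). The second ENPP2 row was at 0 in all 6 libraries. Autotaxin mRNA was thus near the floor of 3 fragments in both groups.

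PLPP3, which degrades extracellular LPA at the cell surface, was at 686, 674 and 742 normalised counts in control and at 537, 598 and 474 in CTTN libraries. The log2 fold change was -0.39 (SE 0.11), and the adjusted p of 0.0859 by the edgeR quasi-likelihood test missed the threshold. It passed with the length trend removed (-0.32, edgeR adjusted p = 0.0308). PLPP1, its close relative, was at 260, 251 and 277 normalised counts in control and at 211, 207 and 221 in CTTN libraries, with a log2 fold change of -0.30 (SE 0.10) and an edgeR adjusted p of 0.115. With the length trend removed PLPP1 was at -0.49 and passed (edgeR adjusted p = 0.0216). For both genes, removal of the trend was a setting chosen after seeing the data. It called 2280 of 14433 genes, beside 606 in the reported fit. The PLPP1 row was shared with RNF138P1 and the PLPP3 row with AC119674.1 and AC119674.2, and their own transcripts held at least 99.5% of the counts of the PLPP1 row and 97.3% of the counts of the PLPP3 row in every library. In FPKM the part of PLPP3's own transcripts was smaller, for example 6.90 of 7.49 FPKM in control library 3.

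PLPP2 was at 2539, 2406 and 2270 normalised counts in control libraries and at 2510, 2004 and 3294 in CTTN libraries. The CTTN libraries lay on both sides of the controls, with the highest value in CTTN library 3, and the main PLPP2 isoform of 1383 nt was the shortest of the 6 tested genes. The log2 fold change was 0.11 (SE 0.18, 95% CI -0.30 to 0.53), and the edgeR adjusted p was 0.657. The direction turned without CTTN library 3 (log2 fold change -0.094) and after removal of the length trend (-0.13).

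Of the 6 genes, 1 passed the adjusted threshold, beside 4.2% of all genes tested, and 5 had groups that did not overlap, beside 38.6%. At an unadjusted p under 0.05, 5 of the 6 genes passed, beside 30.2% of all genes, of which 16.3% were higher and 14% lower in the CTTN group. The 5 that differed in this way were 2 receptors with higher and 1 receptor and 2 phosphatases with lower levels in the CTTN libraries. Since the genes were chosen with earlier results of these data known, these shares are set side by side as a description only.

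In control cells the order of per-length levels ran from PLPP2 at 53.0 ± 2.6 FPKM to LPAR2 at 7.72 ± 1.46, PLPP3 at 7.0 ± 0.45 and PLPP1 at 6.26 ± 0.35 FPKM (SD, n = 3). LPAR5 and LPAR3 followed at 0.607 ± 0.091 and 0.436 ± 0.113 FPKM, and LPAR6, ENPP2 and LPAR1 were below 0.05 FPKM. The control ranges of LPAR2 and PLPP3 overlapped. PLPP3 lay above PLPP1, and LPAR5 above LPAR3, within each control library, although the ranges of each pair just touched across libraries, at 6.60 FPKM for the first pair and at 0.502 FPKM for LPAR5 against 0.505 FPKM for LPAR3. By their own transcripts alone, the control ranges of PLPP3 and PLPP1 overlapped more, at 6.39 to 6.90 and 5.84 to 6.60 FPKM. Among all genes tested, PLPP2 stood at percentile 86.8 of the level in control cells, LPAR2, PLPP3 and PLPP1 at percentiles 48.1, 45.9 and 44, and LPAR5 and LPAR3 at percentiles 13.5 and 10.2. In CTTN cells PLPP2 was at 58.6 ± 18.7 FPKM, LPAR2 at 10.5 ± 0.91, PLPP3 at 5.4 ± 0.29 and PLPP1 at 5.17 ± 0.19 FPKM. There LPAR2 stood apart from the phosphatases below it, and LPAR5 at 1.20 FPKM stood apart from LPAR3 at 0.237 ± 0.095 FPKM. By own transcripts alone, PLPP3 was at 5.11, 5.62 and 4.97 FPKM in CTTN libraries 1, 2 and 3. PLPP1 was at 5.25, 4.87 and 5.32 FPKM, so PLPP3 was the higher only in CTTN library 2.

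The isoform table was tested separately, and 0% of its 58275 isoforms passed an adjusted p of 0.05 by the edgeR quasi-likelihood test, while 6.24% had an unadjusted p under 0.05. The main LPAR5 isoform, ENST00000431922, held 83.4% ± 15.15 of the gene's counts in control and 85.5% ± 9.43 in CTTN cells (SD, n = 3 each), with a log2 fold change of 1.05 (edgeR adjusted p = 0.767). The main LPAR2 isoform, ENST00000407877, held 81.7% ± 2.44 and 81.5% ± 5.43, with a log2 fold change of 0.53. For both receptors the main isoform therefore had a fold change close to that of its gene.

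Estimates for some isoforms of the other genes shifted between groups or libraries. The main LPAR3 isoform, ENST00000440886, held 95.1% ± 8.4 of the gene's counts in control but 39.9% ± 36.1 in CTTN cells. PLPP2 counts assigned to ENST00000633125 were 34.1, 53.0 and 68.2 in control and near 0 in CTTN libraries, with an unadjusted p of 0.000906 and an adjusted p of 0.488 by the edgeR test. Its log2 fold change of -8.70 became -0.085 for the start-site group that holds it. The main PLPP2 isoform, ENST00000434325, held 66.8% ± 1.65 in control and 73.9% ± 1.87 in CTTN cells. The main PLPP3 isoform, ENST00000371250, was at 478 and 580 counts in CTTN libraries 1 and 2 but at 194 in CTTN library 3, where 248 counts were assigned to ENST00000472957. Such assignments are estimates whose error the test does not see, and the part of that error in these values was not tested.

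Genes of the wider LPA pathway were counted in lists. Of 13 tested genes that supply LPA or its precursors, 2 fell and 0 rose, beside 1.91% called lower and 2.29% called higher among all genes, with a median log2 fold change of -0.17 beside 0.01 over all genes tested. LIPH, a membrane phospholipase that makes LPA from phosphatidic acid, was at 1050, 1010 and 1002 normalised counts in control and at 700, 694 and 547 in CTTN libraries (log2 fold change -0.66, SE 0.11, edgeR adjusted p = 0.0285). PLD1, a phospholipase D that makes phosphatidic acid, was at 642, 639 and 655 in control and at 438, 510 and 410 in CTTN libraries (log2 fold change -0.51, SE 0.10, edgeR adjusted p = 0.0438). The groups did not overlap for either gene, with the CTTN libraries below, as for 18.9% of all genes tested. Both genes were lowest in CTTN library 3. The main PLD1 isoform measured 5855 nt, in the longest length class. The PLD1 call was lost in 10 of 16 settings, with a log2 fold change of -0.23 (edgeR adjusted p = 0.0969) once the length trend was removed, and the LIPH call in 8 of 16, including the omission of any control library (edgeR adjusted p of 0.142 to 0.158). Leaving out a control library left 15 to 30 genes called in total. At an unadjusted p under 0.05, 1 supply gene was higher and 3 were lower, beside 16.3% and 14% of all genes, and the remaining pair, GDPD3 and PLA2G4A, were named after their values were seen. GDPD3, a lysophospholipase D that can make LPA, was at 2542, 2464 and 2430 normalised counts in control and at 3852, 2951 and 4722 in CTTN libraries, with a log2 fold change of 0.63 that missed the threshold (edgeR adjusted p = 0.0758), and it was highest in CTTN library 3. PLA2G4A, a cytosolic phospholipase A2, was at 365, 326 and 335 normalised counts in control and at 255, 267 and 195 in CTTN libraries, with a log2 fold change of -0.52 that also missed the threshold (edgeR adjusted p = 0.0803).

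Of 13 tested genes of a list of LPA-removing enzymes and their family members, which includes PLPP1, PLPP2 and PLPP3 as well as relatives such as PLPP6, PLPP7 and PLPPR2 that are not known as LPA phosphatases, none was called by edgeR, 3 were higher and 2 lower at an unadjusted p under 0.05, beside 16.3% higher and 14% lower among all genes, and the median log2 fold change was 0.11. Named after their values were seen, the 3 higher genes were PLPP7, ACP6 and AGPAT2 and the 2 lower ones PLPP1 and PLPP3. Among LPA receptors beyond the 9 genes, only GPR35 could be tested, in a row merged with CAPN10, and it was not called.

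The related sphingosine 1-phosphate system had 1 called gene of 9 tested, beside 4.2% of all genes. Of these 9, 3 lay in rows merged with another gene, S1PR2 with DNMT1, S1PR3 with C9orf47 and MFSD2B with FKBP1B. SGPP1, which dephosphorylates sphingosine 1-phosphate inside the cell, was at 1624, 1693 and 1671 normalised counts in control and at 1260, 1195 and 1197 in CTTN libraries (log2 fold change -0.45, SE 0.077, edgeR adjusted p = 0.0270). Among 15 tested genes of a list of serum response, SRF and YAP target genes, some of which LPA can induce, 1 fell and 0 rose, beside 1.91% called lower and 2.29% called higher among all genes. It was JUN, a subunit of the AP-1 transcription factor, at 1742, 1822 and 1881 normalised counts in control and at 1098, 1197 and 1201 in CTTN libraries (log2 fold change -0.64, SE 0.083, edgeR adjusted p = 0.0116). The groups were well apart for SGPP1 and JUN, and CTTN library 2 gave values close to those of the other CTTN libraries. The SGPP1 call was lost in 8 of 16 settings, for example without control library 2 (edgeR adjusted p = 0.18), and the JUN call in 6 of 16, for example without CTTN library 1 (edgeR adjusted p = 0.105). Those example fits called 15 and 18 genes in total. The median of the serum response list was -0.08, with 5 genes higher and 3 lower at an unadjusted p under 0.05, beside 16.3% and 14% of all genes. Named likewise, the higher ones were EGR1, FOS, IER2, MYL9 and ACTA2 and the lower ones JUN, VCL and CTGF.

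**Figure D3:**
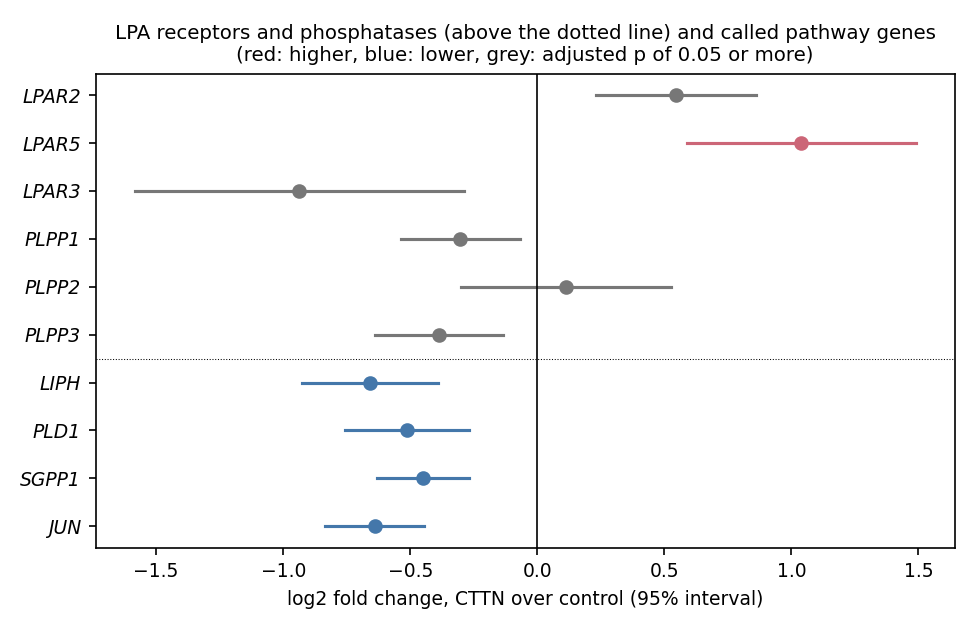
Log2 fold change of CTTN over control (x axis) with its 95% confidence interval for the 6 tested genes (above the dotted line) and for the 4 called genes of the lists (below it). The intervals of LPAR5 and LPAR2 lie above 0, those of LPAR3, PLPP1, PLPP3 and the 4 list genes below 0, and that of PLPP2 crosses 0, while among the 6 only LPAR5 is coloured for an adjusted p under 0.05.

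The genes whose log2(FPKM + 1) followed LPAR5 most closely over the 6 libraries, among 11896 genes compared, were PBX3 (Pearson r = 0.998) and PHYH (r = 0.994). For LPAR2 they were HNRNPDL (r = 0.990) and KLHL17 (r = 0.983). These correlations rest on 6 points that share the group difference and the library trends, and they are given as a description.

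**Figure D4:**
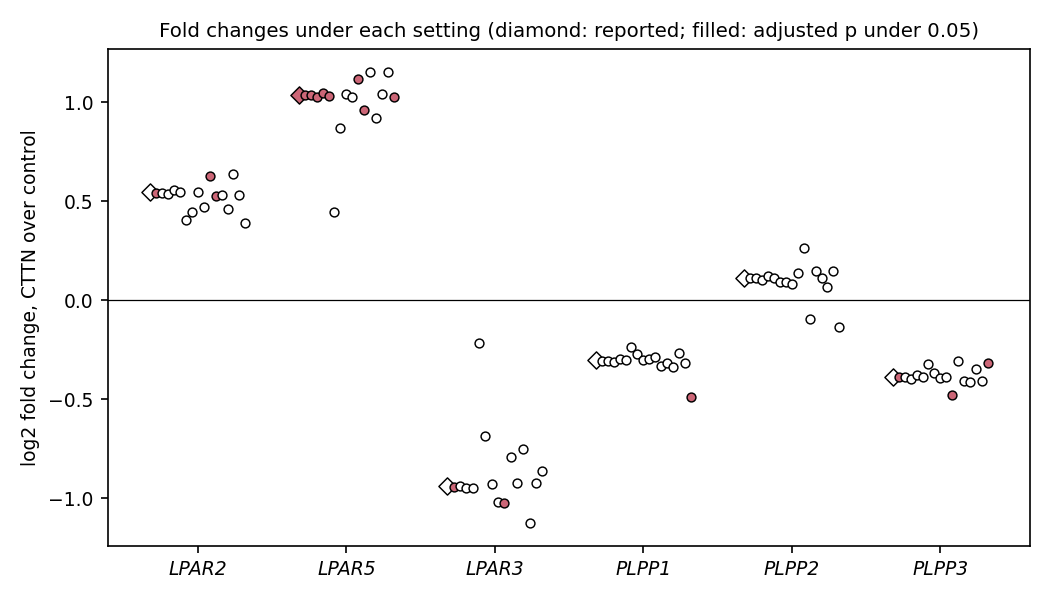
Log2 fold change of CTTN over control (y axis) of the 6 tested genes (x axis) under the reported analysis (diamond) and under each alternative setting (circles), filled where the adjusted p was under 0.05. LPAR5 and LPAR2 stay above 0 and PLPP1 and PLPP3 below 0 in all 16 alternatives, LPAR3 stays below 0 in the 15 that kept it past the filter, and PLPP2 falls on both sides.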

How the data were processed

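RNA was captured by polyA and sequenced from TruSeq stranded libraries. Per the labels, the authors used bcl2fastq 2.20.0, Trimmomatic, STAR and Cufflinks, while the study's methods name another trimming tool and an older genome build. File coordinates matched RefSeq genes on GRCh38, which the labels name, so GRCh38 is used here. The deposited estimated counts had been divided by the authors' size factor, a ratio per library of 0.90 to 1.15 listed with a total signal mass, and multiplying it back gave whole fragments within 0.02 for 100% of the 85068 low to moderate gene values checked, used where fragments are named. The deposited FPKM values were scaled by the authors to transcript length and library depth. CTTN columns were named in the descriptions, but the 3 control columns were identified as a group through the authors' sample table, since the descriptions name columns shifted by 1. Control library numbers follow that table.

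Deposited counts were rounded, filtered with filterByExpr, scaled by TMM and tested with the edgeR 4.0.16 quasi-likelihood test (R 4.3.3), with Benjamini-Hochberg adjustment over all genes and a call at an adjusted p under 0.05. Normalised counts are the deposited values. The script was tested on simulated data. DESeq2 1.42.0, limma 3.58.1 on log2(FPKM + 1) or log2(FPKM + 0.1), other filters, a replicate block and left-out libraries were alternatives. Removal of the length trend was chosen after seeing the data. The authors' start-site counts served as an alternative for isoforms, and coding-sequence tables were not used.

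Members and lists were chosen with earlier results of these data known. All 9 genes are described, and each list contributes its called genes, up to 4. One list is not reported here. For the 2 members with the smallest adjusted p, the 2 other genes with a mean FPKM of at least 1 and the highest correlation are named. Where no separate cultures are documented, p-values measure only the spread between these libraries.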

Additional observations from a re-analysis of the deposited data

How the results depend on the processing

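LPAR5 kept its direction in all 16 alternatives and its call in 8. The call was lost with limma on log2(FPKM + 1) (log2 fold change 0.45, adjusted p = 0.129) or log2(FPKM + 0.1) (0.87, adjusted p = 0.138), with a replicate block (1.04, adjusted p = 0.086), and with only the columns that a sample description names (1.15, adjusted p = 0.106). Leaving out 1 library gave 0.92 to 1.15, with the call lost without CTTN library 1 or any 1 of the control libraries. LPAR2 stayed higher (0.46 to 0.64 with 1 library left out) and passed with DESeq2 (0.54) and without CTTN library 2 or 3. LPAR3, which the filter at a mean of 50 fragments removed (-1.13 to -0.75 with 1 library left out), and PLPP3 (-0.48 to -0.31) passed with DESeq2 (-0.94 and -0.39) and without CTTN library 2, and PLPP3 (-0.32) and PLPP1 (-0.49) passed with the length trend removed. PLPP2 turned negative without CTTN library 3 (-0.094) and with the length trend removed (-0.13), within a left-out range of -0.094 to 0.27. At the level of start sites the PLPP2 isoform ENST00000269812 turned from 0.30 to -0.085, and ENST00000633125 moved from -8.70 to -0.085. Description-named columns give the same fit as leaving out control library 1. The cause of these changes was not tested.

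The 606 genes called became 2071 with DESeq2, 94 and 115 with limma at pseudocounts of 1 and 0.1, 109 with the replicate block, 29 with description-named columns and 2280 with the length trend removed. With 1 library left out they ranged from 15, without control library 2, to 6953, without CTTN library 2. CTTN lost its call with limma (1.22 and 1.23), the block (1.30) and description-named columns (1.33), and without CTTN library 1 or any 1 control library (adjusted p of 0.123 to 0.154), with values of 1.11 to 1.57 when 1 library was left out. Same-numbered libraries correlated at 0.0285, 0.0791 and -0.19 in their deviations from the group means, with control numbers from the authors' sample table, which the descriptions contradict. The numbers were not taken to pair them, and the block rests on that numbering. Depth limits LPAR1, LPAR6 and ENPP2, at 0 to 4 fragments a library.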
